A study of Rattus norvegicus with 22 samples.

Results

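Proximal convoluted tubule (PCT) cells were described by their number, their share of proximal tubule nuclei and their place on the deposited map. They are the nuclei that the authors' annotation of the single-nucleus RNA-Seq names PCT, and they numbered 95279 of 310282 nuclei (30.7%). They made up 55.2% of the 172525 proximal tubule nuclei, which also held 60833 proximal straight tubule (PST) nuclei and 16413 nuclei of injured proximal tubule (iPT) cells. The study examined whole kidneys of male Sprague-Dawley rats with mineralocorticoid hypertension and asked how drugs that block the mineralocorticoid receptor or the epithelial sodium channel change the cells of the kidney.

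Control rats were sham operated. Rats of the DOCA group had 1 kidney removed, were injected under the skin each week with deoxycorticosterone acetate (DOCA) at 50 mg/kg, drank water with 1% NaCl and were gavaged daily with vehicle. Per the labels, removal of a kidney, DOCA and salt were shared by the rats given finerenone (10 mg/kg/day), spironolactone (50 mg/kg/day) or amiloride (20 mg/kg/day). The methods of the study name the operation for the DOCA, finerenone and spironolactone groups but not for amiloride. The samples numbered 5 in each of the control, DOCA, finerenone and spironolactone groups and 2 in the amiloride group. Sampling was at 6 weeks, except for 1 sample each of DOCA, finerenone and spironolactone, which was taken at 3 weeks.

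The convoluted part of the proximal tubule receives the glomerular filtrate first and takes back most of its glucose, amino acids, bicarbonate, phosphate, sodium and filtered protein. Its luminal glucose carrier is encoded by Slc5a2 (SGLT2), and its sodium-coupled lactate carrier by Slc5a12, and both genes are used as markers of this segment. The straight part follows it and reabsorbs what is left. After injury, proximal tubule cells lose these transporters and express injury genes such as Havcr1 (KIM-1) and Vcam1, and some recover whereas others remain in that state. The study itself named Cubn for PCT and Slc7a13 for PST, and counted Slc5a12 among the markers of PST. Gene values were not analysed here, so the PCT label was not checked against Slc5a2 or Slc5a12 and was taken as the authors gave it.

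The annotation names 22 libraries and gives each a treatment, with as many libraries per treatment as there are samples. The library names were not matched to samples or time points, so each library was taken as 1 sample of its treatment and the time points were combined. The p-values below therefore measure only the spread between these libraries. Nothing in the annotation says which libraries came from separate rats. PCT nuclei per library ranged from 277 to 16734 among 759 to 48403 nuclei in all. The names of 6 libraries carry the tag New (1 DOCA, 2 finerenone, 1 spironolactone and both amiloride libraries), those of 5 carry the tag Old, and 11 carry neither. What the tags mean is not given in the sources used here. The sources also do not say whether the 3-week samples of DOCA, finerenone and spironolactone are among the libraries tagged New. Both amiloride samples were taken at 6 weeks, and only 1 finerenone sample at 3 weeks. With each library taken as 1 sample, both amiloride libraries and at least 1 finerenone library tagged New are therefore from 6 weeks. For the other libraries tagged New, tag and time point cannot be told apart here. In each treatment the number of untagged libraries equalled the number of samples that the labels list with Cell Ranger 3.0.2, and the number of tagged libraries equalled that with Cell Ranger 6.0.1. Of the 16 RK numbers in the names, 5 occur in more than 1 library, and for 4 of these the libraries belong to different treatments. One of them joins the control libraries RK12.2 and RK12.2.Old.MO, which were counted as 2. The remaining number joins the spironolactone libraries RK6.1 and RK6.1.New, which were also counted as 2. No alternative counted these spironolactone libraries as 1. No library tagged New is a control. These 6 libraries stood apart in where their PCT nuclei lay, so tests on position are given with and without them where a group keeps libraries. One of these 6 libraries is RK2.2.New, the library labelled DOCA whose PCT nuclei lay among those of control libraries. Its treatment was taken as annotated and was not checked, and the same RK number also names a finerenone library (RK2.2.Old.MO). Whether it is the DOCA sample taken at 3 weeks is not known either. If it is, tests without it or without the libraries tagged New leave out that time point of DOCA.

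The PCT share of proximal tubule nuclei did not separate the treatments. In the control group it was 67.2% in RK10.3.Old, 70.4% in RK11.3, 51.2% in RK12.2, 73.3% in RK12.2.Old.MO and 56.1% in RK12.3. In the DOCA group it was 72.3% in RK2.2.New, 70.1% in RK7.1, 69.6% in RK7.2, 62.2% in RK8.2 and 55.6% in RK9.1.Old.MO. The DOCA values lay within the control range. The means were 66.0% ± 6.95 (SD, n = 5) in DOCA and 63.6% ± 9.53 (SD, n = 5) in control, a difference of 2.33 percentage points (two-sided exact permutation test, p = 0.675, adjusted p = 0.771).

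The finerenone libraries had the widest spread of the 5 treatments. Their PCT shares were 49.0% in RK2.1, 61.1% in both RK2.2.Old.MO and RK3.1, 75.3% in RK7.1.New and 23.8% in RK8.2.New. RK8.2.New had the lowest PCT share of the 22 libraries and held 312.1 PST nuclei per 100 PCT nuclei, while the next highest library, RK2.1, held 80.2. RK7.1.New and RK8.2.New were also the largest libraries, with 40267 and 48403 nuclei. The mean PCT share with finerenone was 54.1% ± 19.3 (SD, n = 5), 11.9 percentage points below DOCA, a difference smaller than the spread among the finerenone libraries (exact permutation test, p = 0.230, adjusted p = 0.635). Without RK8.2.New the difference was -4.34 percentage points (exact permutation test, p = 0.460).

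With spironolactone the PCT share was 65.6% in RK4.1, 54.8% in RK4.2, 56.1% in RK5.1.Old.MO, 71.1% in RK6.1 and 50.4% in RK6.1.New, and the mean was 59.6% ± 8.51 (SD, n = 5). It was 6.37 percentage points below DOCA (exact permutation test, p = 0.238, adjusted p = 0.635), and the groups overlapped. Without RK6.1.New this difference was -4.06 percentage points (exact permutation test, p = 0.460). The amiloride libraries had 64.8% (RK11.2.New) and 74.1% (RK12.2.New.MO), a mean 3.51 percentage points above DOCA (exact permutation test, p = 0.667). With 2 libraries against 5 the smallest p this test can give is 0.0952, and with 5 against 5 it is 0.00794. A p that misses the threshold does not show that the treatments have equal shares. Counting error was small beside the spread between libraries. The exact (Clopper-Pearson) 95% interval of the share ran from 46.9% to 55.5% in the smallest PCT library, RK12.2, and from 74.7% to 75.9% in the largest, RK7.1.New. Such intervals cover counting error only.

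**Figure D1:**
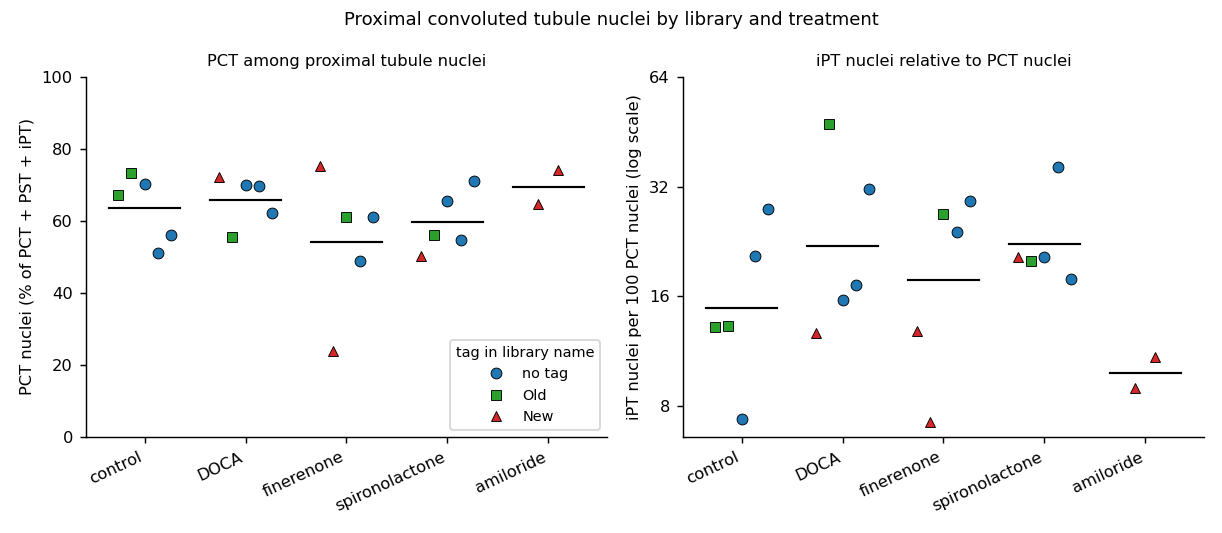
PCT nuclei as a percentage of proximal tubule nuclei (left) and iPT nuclei per 100 PCT nuclei on a log scale (right), with 1 point per library, the tag in the library name as symbol and the mean over libraries as bar (geometric mean on the right). The PCT shares of the treatments overlap, with 1 finerenone library at 23.8%, and both amiloride libraries lie below the 5 DOCA libraries in the right panel.

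Among all nuclei the PCT share was 30.8% ± 8.31 in control, 35.4% ± 7.66 in DOCA, 30.9% ± 8.51 with finerenone, 31.6% ± 10.7 with spironolactone (SD, n = 5 each) and 38.8% ± 2.84 with amiloride (SD, n = 2). The lowest library was RK6.1.New (spironolactone) with 14.3%, and the highest was RK7.2 (DOCA) with 42.5%. The lowest unadjusted p of the 4 comparisons of this share was 0.365, for DOCA against control (exact permutation test, adjusted p = 0.663), with a difference of 4.62 percentage points that ran from 2.28 without RK12.3 to 7.46 without RK9.1.Old.MO. In whole kidney nuclei a change in the share of 1 cell type cannot be told apart from an opposite change in the others.

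The balance between injured and PCT nuclei was then taken as the number of iPT nuclei per 100 PCT nuclei. The iPT nuclei so counted did not lie at the same place on the map in all libraries, as given under other observations. Control libraries held 7.36 (RK11.3), 13.1 (RK10.3.Old), 13.2 (RK12.2.Old.MO), 20.6 (RK12.2) and 27.7 (RK12.3). DOCA libraries held 12.7 (RK2.2.New), 15.6 (RK7.1), 17.2 (RK7.2), 31.5 (RK8.2) and 47.5 (RK9.1.Old.MO). The upper DOCA libraries exceeded every control library and the lower ones lay among them. On the log2 scale the DOCA mean was 0.56 above control, a 1.47-fold higher ratio of geometric means, which was within the spread between libraries (exact permutation test, p = 0.294, adjusted p = 0.663). The log2 difference was 0.28 without RK9.1.Old.MO (p = 0.587) and 0.31 without RK11.3 (p = 0.556), by exact permutation tests.

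Finerenone libraries held 7.21 to 29.2 iPT nuclei per 100 PCT nuclei, with a median of 24.1, and on the log2 scale their mean was 0.31 below DOCA (-0.31; exact permutation test, p = 0.540, adjusted p = 0.762). The 2 libraries tagged New gave the lowest finerenone values, 7.21 and 12.8, and the other 3 held 24.1 to 29.2. Without the libraries tagged New the difference from DOCA was 0.08 on the log2 scale, in the opposite direction. It was 0.0167 without RK8.2.New alone, -0.0288 without RK9.1.Old.MO and -0.51 without RK2.2.New. Spironolactone libraries held 17.8 to 36.3, with a median of 20.4, and their log2 mean differed from DOCA by 0.02 (exact permutation test, p = 0.952). The amiloride libraries held 8.96 and 10.9, below all 5 DOCA libraries. Their log2 mean was lower than DOCA by -1.15, a ratio of 0.45, at the smallest p that 2 against 5 libraries can give (exact permutation test, p = 0.0952, adjusted p = 0.593). Both amiloride libraries carry the tag New, and the single DOCA library with that tag held 12.7, so amiloride and the tag cannot be told apart in this comparison.

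PST nuclei per 100 PCT nuclei describe the balance of the straight and convoluted parts. They were 23.2 to 74.7 in control (median 35.8) and 25.6 to 32.5 in DOCA (median 27.0), so the DOCA libraries lay close together inside the control range. The log2 mean was lower in DOCA by -0.53 (exact permutation test, p = 0.111, adjusted p = 0.593). It was higher than DOCA by 1.04 with finerenone (p = 0.183, adjusted p = 0.635), by 0.63 with spironolactone (p = 0.111, adjusted p = 0.593) and by 0.23 with amiloride (p = 0.571, adjusted p = 0.762), all by exact permutation tests. Single libraries carried much of these differences. The finerenone difference was 0.43 without RK8.2.New (p = 0.365), the spironolactone difference 0.42 without RK6.1.New (p = 0.222) and the DOCA difference -0.31 without RK12.2 (p = 0.222), by exact permutation tests. With the mean of RK12.2 and RK12.2.Old.MO as 1 control value, the DOCA difference was -0.52 and its unadjusted p fell to 0.0159 (exact permutation test, adjusted p = 0.254). No comparison of the PST to PCT ratio passed the adjusted threshold of 0.05.

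PCT nuclei were also compared with nuclei of other nephron segments. For each nucleus of the loop of Henle (LOH), the salt-reabsorbing segment below the proximal tubule, there were 0.901 to 4.74 PCT nuclei in control libraries (median 1.63) and 1.87 to 7.09 in DOCA libraries (median 4.74). The log2 mean was 1.01 higher in DOCA, and the groups overlapped (exact permutation test, p = 0.103, adjusted p = 0.714). For each podocyte nucleus, from the filter of the glomerulus, there were 25.1 to 92.3 PCT nuclei in control and 38.0 to 137.0 in DOCA libraries (log2 difference 0.81, exact permutation test, p = 0.119, adjusted p = 0.714). For each nucleus of the distal convoluted tubule (DCT) there were 4.01 to 10.7 in control and 2.40 to 9.51 in DOCA libraries (log2 difference -0.29, exact permutation test, p = 0.516, adjusted p = 0.774). No drug group differed from DOCA in any of these ratios at an unadjusted p under 0.05. RK6.1.New, a spironolactone library of 33683 nuclei, held 0.437 PCT nuclei per LOH nucleus and 1.86 per podocyte nucleus, the lowest of the 22 libraries for both.

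The UMAP that the authors deposited was made after batch correction with Harmony and places nuclei with like transcriptomes near each other. Its coordinates have no unit, and distances on it are a description of the embedding, not of expression. PCT nuclei formed 1 large body with a smaller part toward iPT. The median position of PCT nuclei was at -1.29 and -2.84 on the first and second coordinates, 6.16 from the median of iPT nuclei and 8.15 from that of PST nuclei. Among the 30 nearest neighbors of a PCT nucleus, of all cell types, 98.4% on average were PCT nuclei, 0.543% were iPT nuclei and 0.298% were PST nuclei. PCT nuclei for which fewer than 50% of the neighbors were proximal tubule nuclei numbered 125.

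Position was measured along the line from the PCT center (0) to the iPT center (1). The main body, up to position 0.3, held 82900 PCT nuclei (87.0%). A thinner stretch from 0.3 to 0.5 held 5106 (5.36%), and 7273 (7.63%) lay past the midpoint of 0.5. These limits were chosen after the map was seen. Along the line, PCT nuclei fell to 1771 from 0.4 to 0.5 and rose again to 3478 from 0.6 to 0.7. The mean shares of these 2 steps were 0.198% and 2.34% in control and 0.254% and 2.97% with amiloride. They were 5.27% and 5.23% in DOCA, 1.68% and 3.26% with finerenone and 4.67% and 4.74% with spironolactone. Past the midpoint 13.8% of PCT nuclei bordered iPT, defined as 10% or more iPT nuclei among the 30 nearest proximal tubule neighbors, against 0.214% before it. Even past the midpoint 76.6% had no iPT nucleus among these neighbors, so most of these PCT nuclei were not mixed with iPT nuclei. Position was counted along the line only, and the distance of each nucleus from iPT nuclei was not measured.

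The libraries tagged New and the other libraries differed in how they filled this map. They contributed 44576 PCT nuclei, 46.8% of the total. They supplied 51.6% of the main body and 23.3% of the nuclei past the midpoint, but only 88 nuclei (1.72%) of the stretch between them. From 0.3 to 0.5 lay 0.0239% to 0.818% of the PCT nuclei of a library tagged New. Among the other 11 libraries of the DOCA, finerenone and spironolactone groups this share was 2.89% to 24.6%. The control libraries split by tag as well, with 0.0312% and 0.0882% in RK10.3.Old and RK12.2.Old.MO and 2.19% to 3.34% in the 3 untagged libraries.

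**Figure D2:**
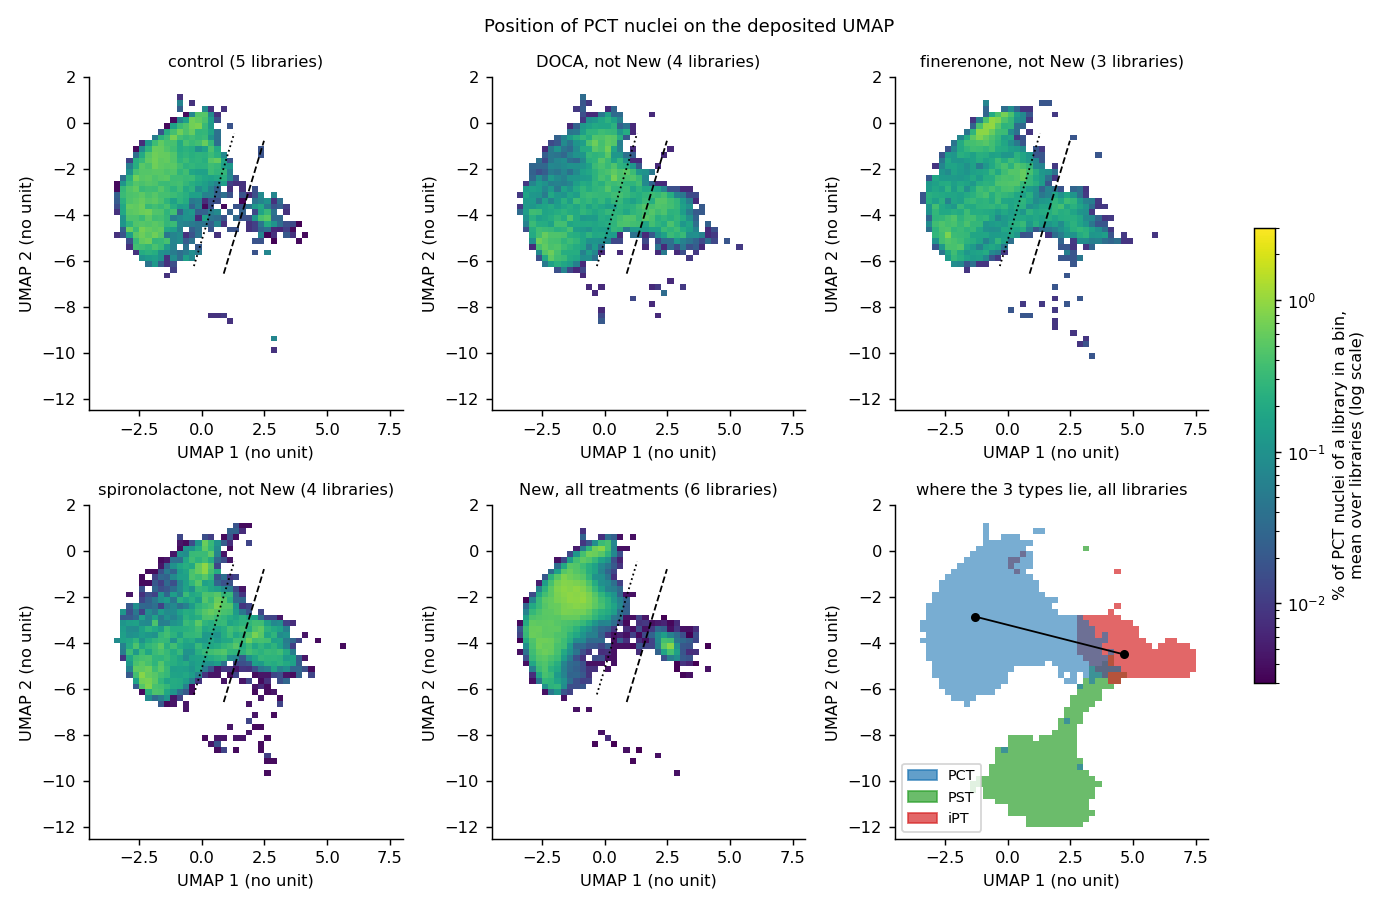
Density of PCT nuclei on the deposited UMAP, as the percentage of the PCT nuclei of a library in a bin, averaged over the libraries of a panel on a log color scale, with the dotted line at position 0.3 and the dashed line at 0.5. The last panel shows bins holding over 0.02% of PCT, PST or iPT nuclei, with the line from the PCT to the iPT center. The stretch between the lines is filled in DOCA, finerenone and spironolactone libraries that are not tagged New and nearly empty in the 6 libraries tagged New.

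The share of PCT nuclei past the midpoint was low in every control library and high in the DOCA libraries other than RK2.2.New. It was 3.50% in RK10.3.Old, 4.26% in RK11.3, 3.25% in RK12.2, 4.15% in RK12.2.Old.MO and 2.46% in RK12.3. In the DOCA group it was 13.0% in RK7.1, 10.9% in RK7.2, 17.9% in RK8.2 and 24.5% in RK9.1.Old.MO, and 4.06% in RK2.2.New, which lay within the control range. The lowest of the 4 DOCA libraries not tagged New, at 10.9% (95% interval 9.88% to 11.9%), stood above the highest control library, at 4.26% (3.50% to 5.12%). These intervals cover only the counting error within a library and not the spread between libraries. That they do not overlap is therefore no test of a difference between treatments. Because the midpoint was chosen after the map was seen, no test is given.

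The drug groups divided in the same manner by tag. With finerenone the share past the midpoint was 11.1% in RK2.1, 8.09% in RK2.2.Old.MO and 13.7% in RK3.1, against 3.69% in RK7.1.New and 2.79% in RK8.2.New. With spironolactone it was 15.1% in RK4.1, 24.7% in RK4.2, 12.7% in RK5.1.Old.MO and 12.5% in RK6.1, against 4.74% in RK6.1.New. With amiloride it was 4.53% in RK11.2.New and 4.52% in RK12.2.New.MO. The 6 libraries tagged New thus ranged from 2.79% to 4.74% over 4 treatments, and the 11 libraries of treated rats without that tag from 8.09% to 24.7%. A limit of 0.4 or of 0.6 in place of 0.5 left every one of these 11 libraries above every control library, at 9.17% or more against 4.61% or less, and at 5.37% or more against 4.01% or less.

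**Figure D3:**
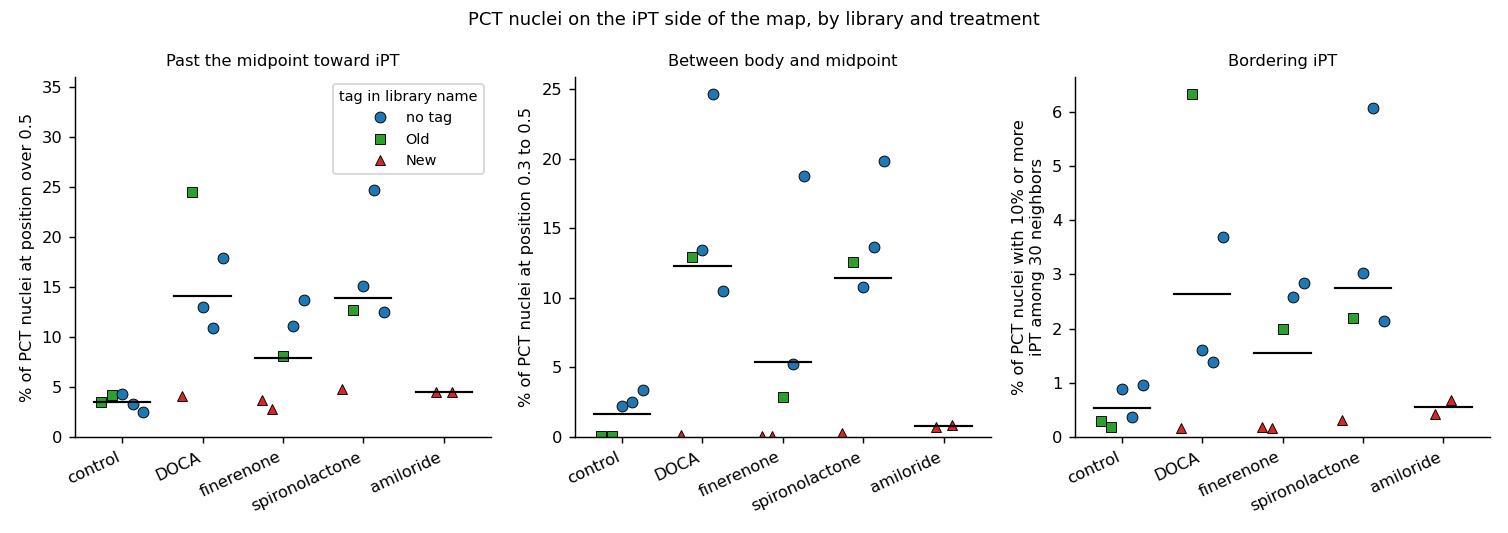
Percentage of PCT nuclei past the midpoint toward iPT, between positions 0.3 and 0.5, and bordering iPT, with 1 point per library, the tag in its name as symbol and the mean over libraries as bar. The red triangles (tag New) stay at or below 4.74%, 0.818% and 0.674% in the 3 panels in every treatment, and the other libraries of the DOCA, finerenone and spironolactone groups lie at or above 8.09%, 2.89% and 1.38%.

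The median position of PCT nuclei was the measure tested. It was -0.10, -0.0905, 0.00823, 0.00845 and 0.0476 in the control libraries. In the DOCA libraries it was -0.0363 (RK2.2.New), 0.109 (RK7.1 and RK8.2), 0.171 (RK9.1.Old.MO) and 0.222 (RK7.2). The 4 DOCA libraries not tagged New lay above all control libraries, and RK2.2.New lay among them. The mean was 0.115 ± 0.0969 in DOCA and -0.0253 ± 0.0661 in control (SD, n = 5 each), a difference of 0.140 (exact permutation test, p = 0.0317, adjusted over 8 tests on map position 0.254). Of the 36 comparisons between treatments, 1 had an unadjusted p under 0.05, which was this one, and none had an adjusted p under 0.05. Without the libraries tagged New the difference was 0.178 with 4 against 5 libraries (exact permutation test, p = 0.0159, the smallest this design can give, adjusted p = 0.0476 over the 6 tests that remained). With RK2.2.New alone left out, the 8 tests remained and the adjusted p was 0.0635 at the same p. That library was left out after its position had been seen, so this value is not independent support. When all 10 libraries were kept and compared only within the tagged and within the untagged ones, the difference was 0.140 and the p was 0.0167, the smallest that 120 arrangements can give (exact permutation test, adjusted p = 0.133). Among untagged libraries alone the difference was 0.125 with 3 against 3, where the smallest possible p is 0.10.

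With finerenone the median position was 0.0217 in RK2.1, 0.00135 in RK2.2.Old.MO, 0.214 in RK3.1, -0.0776 in RK7.1.New and -0.0824 in RK8.2.New. The mean was lower than DOCA by -0.0994 (exact permutation test, p = 0.175, adjusted p = 0.457), and without the libraries tagged New by -0.0736 (exact permutation test, p = 0.286, adjusted p = 0.571). With spironolactone the 4 libraries without the tag New had medians of 0.120 to 0.202 and RK6.1.New had -0.0707, and the mean differed from DOCA by -0.00436 (exact permutation test, p = 0.944), and by 0.00315 without the libraries tagged New (exact permutation test, p = 0.857). The amiloride libraries had -0.017 and 0.00875, lower than DOCA by -0.119 on average (exact permutation test, p = 0.286, adjusted p = 0.457). Finerenone and spironolactone were given at different doses and are set side by side without a test.

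The border of PCT with iPT was rare in all treatments. Of the 95279 PCT nuclei, 1193 (1.25%) had 10% or more iPT nuclei among their 30 nearest proximal tubule neighbors, and 91684 (96.2%) had none. Seen from the other side, 1252 iPT nuclei (7.63%) had 10% or more PCT neighbors and 754 (4.59%) had 10% or more PST neighbors. These iPT values were counted among the 30 nearest nuclei of all cell types, unlike the PCT border. The PCT share at the border was 0.297% in RK10.3.Old, 0.875% in RK11.3, 0.361% in RK12.2, 0.176% in RK12.2.Old.MO and 0.966% in RK12.3. In DOCA it was 0.164% in RK2.2.New, 1.61% in RK7.1, 1.38% in RK7.2, 3.69% in RK8.2 and 6.34% in RK9.1.Old.MO, so all but RK2.2.New exceeded every control library. The means were 2.64% ± 2.43 and 0.535% ± 0.359 (SD, n = 5 each; exact permutation test, p = 0.0635, adjusted p = 0.254), and without libraries tagged New the difference rose from 2.10 to 2.72 percentage points (exact permutation test, p = 0.0159, adjusted p = 0.0476, with the same limit on its use as above). Without RK9.1.Old.MO, the library with the most border nuclei, the difference was 1.18 percentage points (exact permutation test, p = 0.127, adjusted p = 0.508).

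With finerenone 1.99% to 2.84% of PCT nuclei bordered iPT in the 3 libraries without the tag New and 0.172% and 0.173% in the 2 that carry it. With spironolactone the share was 2.13% to 6.07% in 4 libraries and 0.312% in RK6.1.New, and with amiloride it was 0.414% and 0.674%. The means differed from DOCA by -1.09 percentage points with finerenone (p = 0.452, adjusted p = 0.603), 0.108 with spironolactone (p = 0.929, adjusted p = 0.944) and -2.09 with amiloride (p = 0.286, adjusted p = 0.457), all by exact permutation tests. Without RK9.1.Old.MO the differences were -0.160 (p = 0.905), 1.03 (p = 0.444) and -1.17 (p = 0.40), and the finerenone difference was -1.70 without RK2.2.New (p = 0.238), by exact permutation tests. The spironolactone difference was -0.723 without RK4.2 and -0.510 without RK2.2.New. Without the libraries tagged New it was 0.0978 (p = 0.943) and that of finerenone -0.784 (p = 0.743), by exact permutation tests. In each of these groups the low values were those of libraries tagged New. Amiloride cannot be compared without that tag, since both of its libraries carry it.

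Libraries with more iPT nuclei per PCT nucleus also had more PCT nuclei at the border. Over the 22 libraries Pearson's r between the border share and the log2 ratio of iPT to PCT nuclei was 0.775 (permutation test, p = 1e-05, the smallest 100000 permutations can give) and Spearman's rho was 0.768 (p = 8.0e-05). Both measures share the iPT nuclei of the library, which raise the ratio and are themselves neighbors. With neighbors taken only from other libraries r was 0.756 (permutation test, p = 1e-05). The PCT nuclei of the library remained the denominator of both measures. The permutations here and below ran across treatments, and over all 22 libraries also across tags. These p-values therefore do not separate the relation from differences between those groups. Without RK11.3 and RK8.2.New, whose ratios were farthest from the median, r was 0.814 (permutation test, p = 2.0e-05). Within the 11 tagged libraries r was 0.837 (p = 0.00274) with rho 0.60 (p = 0.0559), and within the 11 untagged libraries r was 0.624 (p = 0.0499) with rho 0.627 (p = 0.0431), by permutation tests. The relation was seen without the 6 libraries tagged New (r = 0.762, n = 16) and not within them (r = -0.03, n = 6).

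**Figure D4:**
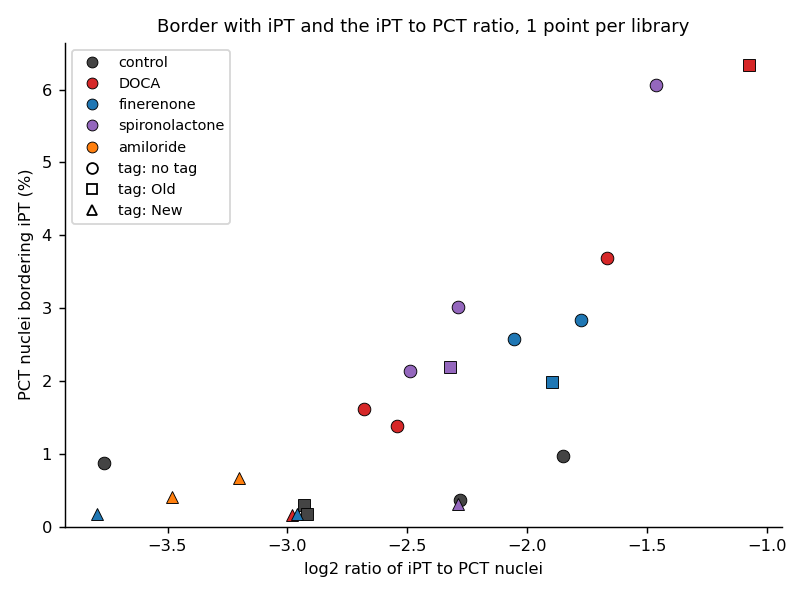
Percentage of PCT nuclei bordering iPT against the log2 ratio of iPT to PCT nuclei, with 1 point per library, colored by treatment and with the tag in the name as symbol. The 6 libraries tagged New lie along the bottom at 0.674% or less, and RK9.1.Old.MO (DOCA) and RK4.2 (spironolactone) lie highest at 6.34% and 6.07%.

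Where the line between PCT and iPT was drawn bears on the ratio of the 2 cell types. When the PCT nuclei past the midpoint were counted with iPT, there were 12.1 to 31.0 of these nuclei per 100 other PCT nuclei in control libraries. There were 31.4 to 95.4 in the 4 DOCA libraries not tagged New and 17.5 in RK2.2.New. In libraries without the tag New the value was 38.0 to 49.8 with finerenone and 34.6 to 81.0 with spironolactone, and in those with it, it was 10.3 and 17.2 with finerenone, 26.4 with spironolactone and 14.1 and 16.1 with amiloride. Under this counting every library of treated rats without the tag New lay above every control library, whereas with the deposited labels the 2 ranges overlapped. It was chosen after the map was seen and carries no test.

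PCT nuclei mixed only in part across libraries. On average 14.1% of the 30 nearest PCT neighbors of a PCT nucleus came from its own library, against the 7.58% that library sizes would give, which is a ratio of 1.86. By library this ratio ranged from 1.46 in RK6.1.New to 3.47 in RK7.2 and 3.43 in RK9.1.Old.MO, and in the libraries tagged New it did not exceed 1.70. The densities of PCT nuclei were also compared between pairs of libraries with 1000 PCT nuclei drawn from each of 19 libraries (3 libraries had fewer), as the percentage of nuclei in shared bins. RK2.2.New overlapped by 37.7% on average with the other DOCA libraries and by 63.0% with the control libraries. RK6.1.New overlapped by 34.3% with the other spironolactone libraries and by 66.3% with control, and the finerenone libraries tagged New by 44.4% and 64.1%. Pairs of libraries tagged New from different treatments overlapped by 68.7% on average (53.6% to 89.9%), and pairs of control libraries by 57.2% (42.8% to 82%). The control pair tagged Old (RK10.3.Old and RK12.2.Old.MO) overlapped by 68.8% and the untagged control pair (RK11.3 and RK12.3) by 82%. These values are descriptions of pairs that share libraries.

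Of the 231 pairs of libraries, 155 shared cell barcodes. The most shared by a pair was 563, between RK7.1.New and RK8.2.New, and the highest share was 3.12% of the smaller library of a pair. Nuclei that shared a barcode had the same cell type in 15% of cases, against 15.5% expected from the makeup of the libraries, and 6.43% of PCT nuclei had such a barcode.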

How the data were processed

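Nuclei were isolated from whole rat kidneys and sequenced with droplet kits (single-nucleus 3′ RNA, and Multiome for 5 libraries whose names end in MO). Per the labels, the authors aligned the reads to rn6 with Cell Ranger 3.0.2 for 11 samples and 6.0.1 for 11, and used Seurat 4.0.1. Per the methods, ambient RNA was removed with SoupX and doublets with DoubletFinder, libraries were merged and corrected with Harmony, and clusters were given cell type names by their markers. On the UMAP each nucleus has a pair of deposited coordinates, a score without unit. The annotation of library, treatment and cell type was joined to them by barcode. Gene values, counts per nucleus and chromatin data were not used here. No doublets were called again.

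For each library, nuclei were counted by type, and the 30 nearest neighbors on the UMAP among PCT, PST and iPT nuclei were found with scikit-learn 1.9.0 in Python 3.11.15 (pandas 2.3.3, numpy 2.4.6). The makeup of neighbors, the iPT side of the border and nuclei lying within PCT were counted among neighbors of all cell types. Libraries were compared by two-sided exact permutation tests of the difference in means (scipy 1.17.1), DOCA against control and each drug against DOCA. Every library had equal weight. P-values were adjusted by Benjamini-Hochberg over 16 tests of composition, 8 of map position and 12 of other segments. Nuclei are not replicates and entered no test. The code was tested on simulated points and groups. The members and measures were chosen with earlier results of these data known. The gene rule named no gene with a value, because gene values were not used.

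Alternatives were another scale or denominator, other neighbor numbers and thresholds, pooled nuclei, and subsets of libraries by kit, tag, size or leaving out 1. Leaving out the libraries tagged New, counting RK12.2 and RK12.2.Old.MO as 1, permuting within tagged and within untagged libraries, and the midpoint share were chosen after seeing the data.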

Additional observations from a re-analysis of the deposited data

Results flagged for a closer look

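A library was looked at again where it stood apart from the other 4 of its treatment by more than Dixon's 95% limit. Of 40 groups of values examined, 2 did so, and chance gives about 1 in 20. The log2 ratio of iPT to PCT nuclei in RK4.2 (spironolactone) was -1.46, and the other 4 spironolactone libraries ranged from -2.49 to -2.29. The same library had the highest shares of PCT nuclei past the midpoint (24.7%) and bordering iPT (6.07%) of its group. The log2 ratio of PCT to LOH nuclei in RK6.1.New (spironolactone) was -1.20, and the other 4 ranged from 1.50 to 2.58. Without RK6.1.New the spironolactone mean of this ratio exceeded DOCA by 0.01 in place of lying below it by -0.63.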

How the results depend on the processing

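Of the 36 comparisons between treatments, none passed the adjusted threshold of 0.05, and 312 alternative values were computed beside 333 that left out 1 library each. In 2 of them a difference passed the threshold, both without the libraries tagged New and both chosen after seeing the data, with DOCA above control by 0.178 in median position and by 2.72 percentage points in the border share. These 2 differences kept their direction under every alternative run, and leaving out 1 library gave 0.113 to 0.178 and 1.18 to 2.72. No paired analysis was possible because the replicate numbers of the samples were not matched to library names. The RK numbers that 3 pairs of DOCA and finerenone libraries share were not used as pairs, since the sources used here do not say what they number. Comparisons were also made only within tagged and within untagged libraries, a block that keeps New and Old together and does not separate them. With it, 1 of 36 had an unadjusted p under 0.05 (exact permutation tests), the DOCA difference in position, and none an adjusted one. The direction then turned for finerenone minus DOCA in PCT to LOH (0.0671) and for amiloride minus DOCA in PCT to DCT (0.52, tagged libraries only). The cause of the reversals below was not tested.

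Direction reversed under 42 alternatives for differences that did not pass the threshold. Values for shares are in percentage points and those for ratios in log2. In libraries tagged Old or New only, DOCA minus control was -6.30 for the PCT share of proximal tubule nuclei, -5.79 for that of all nuclei and 0.000925 for PST to PCT. Spironolactone minus DOCA was then -0.28 for iPT to PCT, -2.0 for the border share and -0.17 for PCT to DCT, finerenone minus DOCA was 0.49 for PCT to LOH and amiloride minus DOCA was 0.52 for PCT to DCT. In untagged libraries, finerenone minus DOCA was 0.38 for iPT to PCT, 0.483 for the border share, 0.39 for PCT to podocyte and -0.28 for PCT to DCT, spironolactone minus DOCA was 0.0210 for position and 0.91 for PCT to podocyte, and DOCA minus control was 0.25 for PCT to DCT. Without the libraries tagged New, finerenone minus DOCA was 0.0821 for iPT to PCT, and spironolactone minus DOCA was 0.782 for the PCT share of all nuclei, -0.15 for iPT to PCT, 0.00315 for position and 0.765 for PCT to podocyte. Without libraries over 30000 nuclei, finerenone minus DOCA was 0.28 for iPT to PCT, and spironolactone minus DOCA was 0.481 for the PCT share of all nuclei, 0.0409 for position, 0.0138 for PCT to LOH and 0.77 for PCT to podocyte. Without Multiome libraries, amiloride minus DOCA was -3.72 and -1.42 for the PCT share of proximal tubule and of all nuclei and -0.0911 for PCT to LOH, spironolactone minus DOCA was 0.00713 for position and DOCA minus control was 0.0436 for PCT to DCT. With nuclei pooled, DOCA minus control was -3.13 and -1.09 for the PCT share of proximal tubule and of all nuclei, spironolactone minus DOCA was -0.25 for iPT to PCT and -0.20 for PCT to DCT, finerenone minus DOCA was 0.18 for PCT to LOH and amiloride minus DOCA was 0.12 for PCT to DCT. With PCT and PST as denominator, amiloride minus DOCA was -3.34 for the PCT share and spironolactone minus DOCA was -0.17 for iPT per PCT or PST nucleus. The spironolactone border difference was -0.0294 with neighbors from other libraries and -0.113 with 700 proximal tubule nuclei per library. The correlation of border share and ratio was -0.0306 within libraries tagged New.

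Leaving out 1 library each time reversed 24 of 333 values. For the PCT share of proximal tubule nuclei, DOCA minus control ranged from -0.779 (without RK12.2) to 4.93 and amiloride minus DOCA from -1.12 (without RK12.2.New.MO) to 8.15. For spironolactone minus DOCA the ranges were -6.68 to 0.481 (without RK6.1.New) for the PCT share of all nuclei, -0.18 to 0.30 for iPT to PCT, -0.723 to 1.03 for the border share, -0.0421 to 0.0409 for position, -0.93 to 0.0138 for PCT to LOH and -1.06 to 0.77 for PCT to podocyte. For finerenone minus DOCA they were -0.51 to 0.0167 (without RK8.2.New) for iPT to PCT and -0.41 to 0.16 for PCT to LOH, and for amiloride minus DOCA -0.22 to 0.69 for PST to PCT and -0.48 to 0.0132 for PCT to DCT. Gene values and depth per nucleus were not analysed here, and the map keeps neither.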

Other observations

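The border was also counted from the side of the iPT nuclei. The share of iPT nuclei with 10% or more PCT neighbors was 0.714% to 8.65% in control libraries. It was 11.02% to 12.9% in the 4 DOCA libraries not tagged New, 10.2% to 12.7% in the 3 such finerenone libraries and 12.3% to 15.3% in the 4 such spironolactone libraries. In the 6 libraries tagged New it was 0.233% to 5.16%. No test was made, and the part of the tag was not tested. The iPT nuclei also differed in their own position on the line. Their median was 1.29 to 1.31 in RK10.3.Old, RK11.3, RK12.2 and RK12.3, and 1.02 in RK12.2.Old.MO. In the DOCA libraries it was 0.928 to 0.997. In the drug groups it was 1.30 in RK6.1.New, 1.23 in RK2.2.Old.MO and 0.938 to 1.01 in the rest. The ratio and the border share thus count iPT nuclei that lay at unlike places. Whether this bears on them was not tested.

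A few nuclei of other cell types lay within the PCT nuclei on the map. Of 137757 nuclei named neither PCT, PST nor iPT, 681 (0.494%) had PCT nuclei as 50% or more of their 30 nearest neighbors. They included 265 endothelial nuclei (1.19% of that type), 235 LOH nuclei (0.610%), 51 macrophage nuclei (0.806%) and 27 nuclei of proliferating tubule cells (1.12%). Among PST nuclei 186 (0.306%) and among iPT nuclei 370 (2.25%) lay within PCT in this sense.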
